A study of Mus musculus with 8 samples.

Results

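RNA of mouse blastocysts carrying a mutation in Isca2 was compared with RNA of wild-type blastocysts, with both mutant genotypes pooled. All 8 libraries of the series entered the comparison: 5 mutant libraries, of which 2 were knockout (KO, Isca2 -/-) and 3 were homozygous for the G77S substitution (G77S, Isca2 G77S/G77S), and 3 wild-type libraries (WT). The mutant value was the mean of the KO and G77S values on the log2 scale, so each genotype had equal weight although KO had 1 library fewer. A gene was described as shifted the same way when every mutant library lay above, or every mutant library lay below, all 3 WT libraries. Embryos were collected at embryonic day 4.5 after hormone-induced ovulation and were cultured before RNA extraction. Matings of heterozygous knockout parents are named in the labels, but the cross behind the G77S embryos is not. They give neither the number of embryos behind a library nor litter, sex or batch, so the p-values reflect library-to-library spread alone, part of which may be technical.

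ISCA2 is a mitochondrial protein of the A-type carrier family. It works late in the assembly of iron-sulfur clusters, where it helps to form the 4Fe-4S clusters that are inserted into enzymes of the respiratory chain, the citric acid cycle and lipoic acid synthesis. The blastocyst at this stage holds the trophectoderm, which becomes placenta, the epiblast, which becomes the embryo, and the primitive endoderm, which becomes yolk sac. The title of the series links ISCA2 to iron and to the TET enzymes, dioxygenases that use iron and 2-oxoglutarate to oxidise methylated cytosine, mostly at CpG sites.

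Because CpG sites are the substrate that the series is concerned with, the DNA just upstream of 4 genes that rose in the mutants (Aqp8, P4ha1, Utf1 and Mrpl17) and of 1 that fell (Nanog) is shown. Methylation was not measured in the RNA files. The sequences are from RefSeq (GRCm38.p6), written 5′ to 3′ on the strand of the gene, and end before the first base that GENCODE annotates as an exon. Every CpG is in capitals.
Aqp8, plus strand, chr7:123462044-123462290: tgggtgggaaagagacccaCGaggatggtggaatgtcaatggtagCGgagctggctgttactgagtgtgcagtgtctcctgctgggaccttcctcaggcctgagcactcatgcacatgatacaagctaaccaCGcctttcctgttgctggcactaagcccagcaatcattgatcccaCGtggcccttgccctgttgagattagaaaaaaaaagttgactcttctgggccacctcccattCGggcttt
P4ha1, plus strand, chr10:59323046-59323295: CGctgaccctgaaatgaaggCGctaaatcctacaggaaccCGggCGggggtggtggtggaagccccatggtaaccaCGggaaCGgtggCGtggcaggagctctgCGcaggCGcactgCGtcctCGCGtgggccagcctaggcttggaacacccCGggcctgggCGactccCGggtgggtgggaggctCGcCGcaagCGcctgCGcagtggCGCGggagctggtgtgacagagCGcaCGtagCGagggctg
Utf1, plus strand, chr7:139943606-139943788: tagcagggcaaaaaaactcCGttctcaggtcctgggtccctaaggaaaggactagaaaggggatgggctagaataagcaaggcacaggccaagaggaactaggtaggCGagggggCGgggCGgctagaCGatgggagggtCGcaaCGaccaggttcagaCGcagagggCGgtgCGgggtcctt
Mrpl17, minus strand, chr7:105811100-105811337: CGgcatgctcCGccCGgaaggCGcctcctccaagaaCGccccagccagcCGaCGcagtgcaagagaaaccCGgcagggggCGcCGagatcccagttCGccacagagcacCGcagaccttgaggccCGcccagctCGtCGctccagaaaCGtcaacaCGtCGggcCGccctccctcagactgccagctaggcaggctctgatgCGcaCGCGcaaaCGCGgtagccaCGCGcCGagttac
Nanog, plus strand, chr6:122707239-122707488: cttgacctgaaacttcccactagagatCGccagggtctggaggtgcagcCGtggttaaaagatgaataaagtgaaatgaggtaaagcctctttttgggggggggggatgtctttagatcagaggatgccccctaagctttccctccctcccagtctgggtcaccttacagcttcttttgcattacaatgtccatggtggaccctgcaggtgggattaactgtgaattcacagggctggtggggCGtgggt
The stretches held 5 CpGs in 247 bases at Aqp8, 24 in 250 at P4ha1, 10 in 183 at Utf1, 27 in 238 at Mrpl17 and 3 in 250 at Nanog. Among all 32851 promoters in the table the median was 6 CpGs in the 250 bases upstream of the start. Genes that rose and genes that fell had similar medians, 8 CpGs over the 15 rising genes with an entry and 9 over the 31 falling ones. The core of the hypoxia response element, ACGTG on either strand, was found in 5 of the 15 (33.3%) and 3 of the 31 (9.68%), against 16.6% of all promoters. The letters TGACNNNGC, part of the antioxidant response element, were in 3 of the 15 and 5 of the 31 on either strand, against 10.2% of all promoters. The P4ha1 window held 1 match of each, and the Aqp8 window held 1 site, CACGTG, which reads the same on both strands and so matches ACGTG on each. A match says only that the letters are present.

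Library depth ran from 10323965 to 23842619 expected counts (estimated read counts per gene). Genes with at least 1 count numbered 14145, 14093 and 15742 in WT, 14428 and 16012 in KO, and 17534, 16525 and 15933 in G77S. What this difference in detection means for genes near 0 in WT was not tested. Fragment length was inferred, as the median over longer genes of length minus effective length (the part of a gene where a fragment can start). It was shorter in the 3 G77S libraries (181.45 to 185.13 bases) than in the other 5 (242.74 to 291.11 bases). An effect of G77S and one of library preparation therefore cannot be told apart. The sum over 4 Y-linked genes was 0.335 CPM in WT replicate 1, 0.07 CPM in G77S replicate 1 and 215 to 418 CPM in the other 6. CPM here are counts relative to library size, per 1e6, after scaling between libraries by the trimmed mean of M values (TMM). Isca2 checks the KO label: it stood at 86.9, 173 and 154 CPM in WT replicates 1 to 3, at 4.84 and 6.2 CPM in KO, and at 89.1, 105 and 133 CPM in G77S. Both KO libraries were below all others, the G77S libraries overlapped WT, and a substitution cannot be read from gene counts. Blastocyst identity was clear for trophectoderm, with the keratin gene Krt8 at 2227 to 3231 CPM in WT. In WT, the epiblast gene Sox2 and the primitive endoderm gene Sox17 had 0 counts in all 3 libraries. Pou5f1, the gene of the pluripotency factor OCT4, stood at 4.49 to 7.58 CPM. Other markers of these lineages were expressed in WT, among them Nanog at 221 to 297 CPM. The listed naive epiblast markers summed to 13034 to 18376.5 CPM in WT, and the primitive endoderm markers to 1242 to 1696 CPM.

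A small set of genes passed the pooled test and moved the same way in every mutant library, and the genes with the largest rises were close to silent in WT. Water channel gene Aqp8, collagen hydroxylase gene P4ha1 and dehydrogenase gene Dhrs7 appeared in all 5 mutant libraries with 3 or fewer counts over all WT libraries. Pluripotency gene Nanog, p53 inhibitor gene Mdm2 and trophectoderm regulator gene Id2 fell in the pooled test and were lower in every mutant library. Of 13953 genes tested with edgeR's quasi-likelihood test and Benjamini-Hochberg adjustment (the source of all adjusted p-values here unless another is named), 65 (0.466%) had an adjusted p under 0.05. These were 20 higher (0.143%) and 45 lower (0.323%). All 20 higher genes and 34 of the lower genes (0.244%) showed no overlap between mutant and WT libraries, 54 genes in all (0.387%). Without regard to the test, 528 genes (3.78%) were higher and 488 (3.5%) lower in every mutant library than in every WT library. Nearest libraries differed at least 2-fold in 12 of the 20 higher and 8 of the 34 lower genes. They differed at least 4-fold in 7 and 0. Of all 13953 genes tested, 119 higher and 38 lower differed at least 2-fold, and 75 and 11 at least 4-fold. The counts of called genes depended on single libraries. They were 0 higher and 0 lower without KO replicate 2, 0 and 3 without WT replicate 2, 1 and 5 without G77S replicate 2, 3 and 8 without WT replicate 3, 3 and 11 without G77S replicate 1, and 52 and 79 without WT replicate 1. At an unadjusted p under 0.05 there were 1748 genes without KO replicate 2 and 1974 without WT replicate 2. All 54 genes kept their direction in each of these fits. They were chosen for having no overlap, which all but fixes the direction, so this is no test of stability. Treating the 5 mutant libraries as 1 group, which puts the difference between the genotypes into the spread, left 0 genes called and 1541 at an unadjusted p under 0.05.

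Genes that were nearly silent in WT came up in every mutant library. Aqp8 (chromosome 7, 123462291 to 123468004) encodes aquaporin 8, a channel for water and hydrogen peroxide. It stood at 0.0558, 0 and 0 CPM in WT, 27.6 and 38.7 CPM in KO, and 5.04, 2.45 and 0.781 CPM in G77S. The groups did not overlap, and the KO libraries were the highest. The ratio of mutant to WT was 854 with a 95% counting interval of 153 to 33800, from 1 count in WT against 1315 in the mutants (adjusted p = 0.014). P4ha1 (chromosome 10, 59323296 to 59373304) encodes the catalytic subunit of collagen prolyl 4-hydroxylase, itself an enzyme that needs iron and 2-oxoglutarate. It had 0, 0 and 0.139 CPM in WT, 16.1 and 10.8 CPM in KO, and 9.87, 11.4 and 4.42 CPM in G77S. G77S replicate 3 was the lowest mutant library, and the mutant to WT ratio was 181 (95% counting interval 61.7 to 880, adjusted p = 0.0161). Intervals and bounds of this kind cover counting error only.

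Dhrs7 (chromosome 12, 72650353 to 72664909), encoding a short-chain dehydrogenase of lipid and steroid substrates, had 0 counts in all WT libraries. It reached 5.73 and 31.6 CPM in KO and 8.54, 4.01 and 5.12 CPM in G77S, at least 202-fold above the level of 3 counts over the WT group (adjusted p = 0.0183). KO replicate 2 was far above the other mutant libraries. Of the other genes of this kind, 4 were picked out after their values were seen. Fbp1 (chromosome 13, 62864753 to 62888282), encoding the gluconeogenic enzyme fructose-1,6-bisphosphatase, had 0 counts in WT and 1.3 to 9.33 CPM in the mutants, at least 89.0-fold (adjusted p = 0.0334). Rgs19, encoding a brake on G protein signalling, had 0 counts in WT and 1.39 to 6.51 CPM in the mutants, at least 66.5-fold (adjusted p = 0.0383). Htr5b, encoding a serotonin receptor, had 1 count in WT and 1.27 to 14.5 CPM in the mutants, a ratio of 303 (54.2 to 12000, adjusted p = 0.0183). Efcab10, encoding an EF-hand protein, ran from 0.0993 to 0.185 CPM in WT and from 3.82 to 11.2 CPM in the mutants (log2 fold change 5.28, SE 0.72, adjusted p = 0.0176). In Htr5b the G77S libraries were the highest, and in Efcab10 the KO libraries.

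Fbp2, the neighbouring gene of Fbp1 (chromosome 13, 62836877 to 62858422) and the muscle-type form of the same enzyme, was already expressed in WT and rose too. It stood at 239.6, 122 and 187 CPM in WT, 388 and 908 CPM in KO, and 1013, 891 and 668 CPM in G77S (log2 fold change 2.03, SE 0.33, adjusted p = 0.0332). The lowest mutant library, KO replicate 1, was 1.62 times the highest WT library. Both genes of fructose-1,6-bisphosphatase therefore rose. Among 22 glycolysis genes 0 were called with edgeR and 6 had an unadjusted p under 0.05, against 14.9% of all genes. DESeq2 called 4 of the 22 and limma 0, against 5.37% and 1.13% of all genes.

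Utf1 (chromosome 7, 139943789 to 139945112), encoding a chromatin factor of pluripotent cells, stood at 5.91, 2.28 and 3.43 CPM in WT, 30.2 and 48.2 CPM in KO, and 27.4, 22.5 and 20.9 CPM in G77S. The lowest mutant library was 3.54 times the highest WT library, and the log2 fold change was 2.96 (SE 0.42, adjusted p = 0.0183). Spin2c, an X-linked gene of the spindlin family of histone readers, showed a log2 difference of 2.86 with an SE of 0.46 (adjusted p = 0.0323), from 1.39 to 3.52 CPM in WT to 11.5 to 19.6 CPM in the mutants. Spindlin genes are near copies of each other on the X chromosome, so the split of reads between them is uncertain. Gtsf1l, related to a piRNA pathway factor of germ cells, had 10.7, 16.4 and 14.1 CPM in WT, 43.5 and 117 CPM in KO, and 37.5 to 61.9 CPM in G77S (log2 fold change 2.22, SE 0.38, adjusted p = 0.0334).

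Metabolic and signalling genes with a clear WT level rose between 2.50-fold and 4.08-fold. Urah, with a low WT level, rose 12.1-fold. Mrpl17 (chromosome 7, 105803206 to 105811099), encoding a protein of the large subunit of the mitochondrial ribosome, stood at 85.5, 116 and 130.5 CPM in WT, 300.3 and 340.2 CPM in KO, and 262, 285 and 229 CPM in G77S. The mutant libraries lay close together, and the log2 fold change was 1.38 (SE 0.20, adjusted p = 0.021). Glo1, encoding glyoxalase 1, which clears methylglyoxal with glutathione, lay in a narrow range, at 42.2 to 58.4 CPM in WT and 116 to 132 CPM in the mutants (log2 fold change 1.32, SE 0.21, adjusted p = 0.0276). Cth, encoding the cysteine-producing enzyme cystathionine gamma-lyase, stood at 10.5, 28.1 and 24.7 CPM in WT, 83.7 and 81.8 CPM in KO, and 123, 79.3 and 64.1 CPM in G77S (log2 fold change 2.02, SE 0.37, adjusted p = 0.0437). Gclm, encoding the modifier subunit of the enzyme that starts glutathione synthesis, had 5.51 to 11.8 CPM in WT, 18.5 and 16.4 CPM in KO, and 44.2 to 63.6 CPM in G77S (log2 fold change 1.93, SE 0.34, adjusted p = 0.0383). Gclm was higher in G77S than in KO. The glutathione transferase gene Gsta1, described below with the lower genes, moved the other way.

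Among the rest of the higher genes, Urah, encoding an enzyme of urate breakdown, had the largest log2 fold change (3.60, SE 0.60, adjusted p = 0.0334), from 0.993 to 1.39 CPM in WT to 5.49 to 44.2 CPM in the mutants. Hgsnat, encoding a lysosomal acetyltransferase of heparan sulfate breakdown, rose by 2.03 (adjusted p = 0.0334) on the log2 scale. Fabp5, encoding a fatty acid binding protein, rose by 1.75 (adjusted p = 0.0189), Fam69a, encoding a protein of the endoplasmic reticulum, by 1.73 (adjusted p = 0.0355), and Gja1, encoding the gap junction protein connexin 43, by 1.63 (adjusted p = 0.0334). Gja1 stood at 44.3, 97.5 and 73.2 CPM in WT against 151 to 299 CPM in the mutants. For Fabp5 the KO libraries, at 85.9 and 97.6 CPM, were just above the highest WT library at 69.9 CPM, and the G77S libraries reached 394 to 717 CPM.

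**Figure D1:**
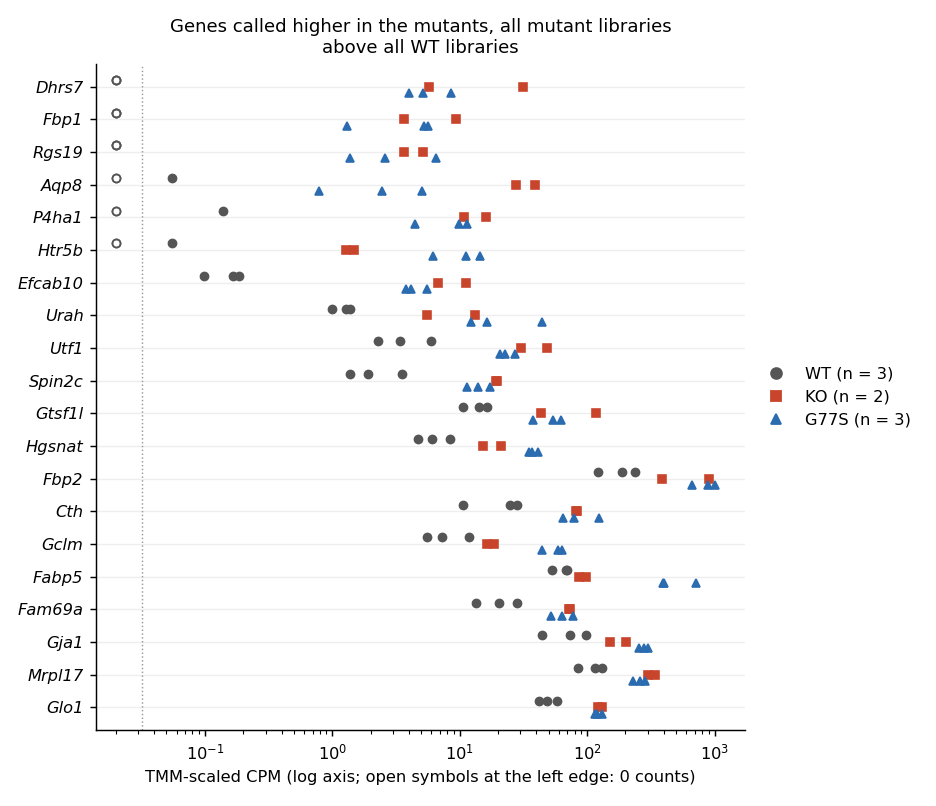
TMM-scaled CPM (log axis) of the 20 genes called higher in the mutants, 1 row per gene and 1 symbol per library: WT circles, KO squares, G77S triangles. Open symbols at the left edge are libraries with 0 counts. In every row the 5 mutant symbols lie to the right of the 3 WT symbols; Dhrs7, Fbp1 and Rgs19 have 0 counts in all 3 WT libraries.

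The lower genes were expressed in WT, and most kept part of their level in both mutants, with 0 counts in 1 genotype for Ttc30a1 and Fhl1. Nanog (chromosome 6, 122707489 to 122714633), a transcription factor gene of naive pluripotency, stood at 297, 266 and 221 CPM in WT, 53.4 and 27.4 CPM in KO, and 115, 66.9 and 176 CPM in G77S. Both KO libraries were lowest, G77S replicate 3 came nearest to WT, and the log2 fold change was -1.91 (SE 0.32, adjusted p = 0.0334). Over the 6 libraries with Y-linked RNA the direction was the same and the call was lost for Nanog (adjusted p = 0.0999), Id2 (adjusted p = 0.101) and Mdm2 (adjusted p = 0.0796). Id2 (chromosome 12, 25093799 to 25097140), encoding an inhibitor of basic helix-loop-helix factors that is expressed in trophectoderm, stood at 3865, 3476 and 3423 CPM in WT, 2863 and 2999 CPM in KO, and 1137, 1165 and 1544 CPM in G77S (log2 fold change -0.89, SE 0.16, adjusted p = 0.0383). Id2 was called in 0 of the 8 fits that left out 1 library, with adjusted p from 0.0526 to 0.15. In whole blastocysts, fewer cells of a type and less RNA per cell cannot be told apart.

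Cell cycle and stress genes were among the lower set. Mdm2 (chromosome 10, 117688875 to 117710758), encoding the ubiquitin ligase that limits p53, stood at 116, 105 and 126 CPM in WT, 37.7 and 21.8 CPM in KO, and 52.1, 72.6 and 63.3 CPM in G77S (log2 fold change -1.42, SE 0.24, adjusted p = 0.0334). Its upstream 250 bases held 29 CpGs, and 6.78% of all promoters hold as many or more. Ccng2, encoding cyclin G2, an atypical cyclin of growth arrest, fell from 15.6 to 38.4 CPM in WT to 1.70 to 5.51 CPM in the mutants (log2 fold change -2.97, SE 0.45, adjusted p = 0.0251). Its nearest libraries were 2.82-fold apart. Manf, encoding a factor induced by stress of the endoplasmic reticulum, fell by 1.18 (adjusted p = 0.0334) on the log2 scale. Uggt1, encoding the folding sensor for glycoproteins and picked out after its values were seen, fell by 1.48 (adjusted p = 0.0334). The Uggt1 call was lost when any 1 WT or G77S library was left out. Leaving out a KO library leaves 1 in that group, so no claim is made that this call holds without it.

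Apoa1, whose product is the chief apolipoprotein of HDL particles, stood at 119.6, 88.2 and 180.0 CPM in WT, 6.26 and 4.24 CPM in KO, and 62.2, 22.6 and 17.3 CPM in G77S (log2 fold change -3.27, SE 0.43, adjusted p = 0.0161). The KO libraries were the lowest. Slc39a2, encoding a zinc importer, stood at 69.8, 313 and 413 CPM in WT, 68.8 and 46.0 CPM in KO, and 5.78 to 19.3 CPM in G77S (log2 fold change -3.37, SE 0.53, adjusted p = 0.0282), and WT replicate 1 and KO replicate 1 were only 1.01-fold apart. Slc22a4, encoding a carrier of organic cations and ergothioneine, had 9.26, 48.1 and 51.1 CPM in WT, 1.89 and 0.583 CPM in KO, and 2.72 to 7.28 CPM in G77S (log2 fold change -3.80, SE 0.62, adjusted p = 0.0334). Tmem14c, encoding a mitochondrial membrane protein needed for haem synthesis, had a fall of 1.49 log2 units (-1.49, SE 0.20, adjusted p = 0.0176), from 360.3 to 614 CPM in WT to 286 and 318 CPM in KO and 91.8 to 119 CPM in G77S. Acp5, encoding an acid phosphatase with an iron centre and picked out after its values were seen, fell from 55.0 to 153 CPM in WT to 26.4 to 40.9 CPM in the mutants (log2 fold change -1.76, SE 0.30, adjusted p = 0.0337).

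Genes that share reads with near copies were also lower, and the split between copies is uncertain. Gsta1, encoding a glutathione transferase, stood at 205, 614 and 868 CPM in WT, 138 and 22.2 CPM in KO, and 17.2 to 48.1 CPM in G77S (log2 fold change -3.50, SE 0.60, adjusted p = 0.0334). Gm3776, its neighbour and near copy on chromosome 9, picked out after its values were seen, followed it at 184, 698 and 896 CPM in WT and 11.8 to 145 CPM in the mutants (log2 fold change -3.74, SE 0.67, adjusted p = 0.0398). Khdc1b and Khdc1c, KH-domain genes of one cluster on chromosome 1, fell by 2.46 and 2.14 on the log2 scale (adjusted p = 0.0334 for both). Khdc1c was picked out after its values were seen. Both calls were lost when any 1 WT or G77S library was left out. Leaving out a KO library leaves 1 in that group, so no claim is made that these calls hold without it. X-linked Nxf7, of a family of RNA export factors, fell from 71.9 to 142 CPM in WT to 8.09 to 28.9 CPM in the mutants (log2 fold change -2.48, SE 0.32, adjusted p = 0.0161). X-linked Dmrtc1c2, of a repeated gene family, had 120.5, 34.6 and 16.1 CPM in WT, 3.07 and 1.06 CPM in KO, and 14.8, 8.98 and 8.76 CPM in G77S (log2 fold change -3.59, SE 0.61, adjusted p = 0.0334). WT replicate 1 was far above the other WT libraries, and without it the value was -2.41 and no longer called. Without KO replicate 1 the values were larger for Gsta1 (-4.42) and Gm3776 (-4.76). BC051665, a cathepsin-like gene picked out after its values were seen, had 3050.4 to 11003 CPM in WT, 1990.5 and 1174 CPM in KO, and 2.18 to 15.8 CPM in G77S (adjusted p = 0.00608).

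Among genes of the cell surface, skeleton and matrix, B3gnt5, encoding a glycosyltransferase of glycolipids, fell by 2.51, Tmem37, encoding a membrane protein, by 2.44, and Nid1, encoding the basement membrane protein nidogen, by 1.73 log2 units (adjusted p = 0.0334, 0.0161 and 0.0383). Tmem37 went from 193 to 289 CPM in WT to 24.7 to 75.6 CPM in the mutants. Glipr2 fell by 1.88 (adjusted p = 0.0113), Abracl, encoding a small regulator of actin dynamics, by 1.88 (adjusted p = 0.0161), Creg1, encoding a secreted glycoprotein of the lysosomal system, by 1.13 (adjusted p = 0.0334), and Dstn, encoding the actin-severing protein destrin, by 0.92 (adjusted p = 0.0437). Pkp4, encoding a junction plaque protein and picked out after its values were seen, had the widest gap of the lower set, 30.2 to 36 CPM in WT against 3.97 to 10.6 CPM in the mutants, with 2.85-fold between the nearest libraries (adjusted p = 0.0183). The other 8 lower genes without overlap, also listed after their values were seen, were Ttc30a1, Fhl1, Clasp1, Ppfibp1, Pla2g10, Chka, E330020D12Rik and Gng2, with adjusted p from 0.0183 to 0.037. Ttc30a1 had 0 counts in both KO libraries and Fhl1 had 0 counts in all G77S libraries, so their fitted changes depend on the prior count and no size is given.

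**Figure D2:**
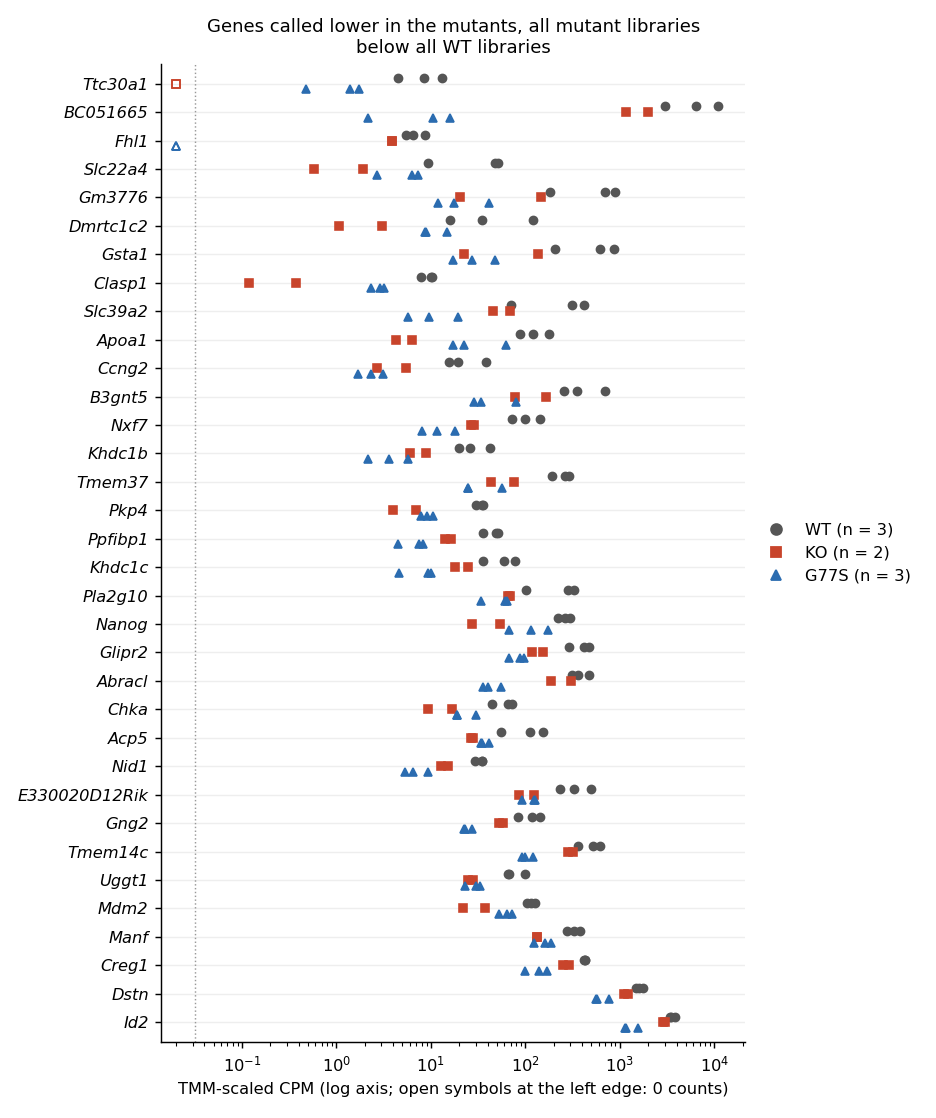
TMM-scaled CPM (log axis) of the 34 genes called lower in the mutants without overlap, drawn as for the higher genes. The 5 mutant symbols lie to the left of the 3 WT symbols in every row, with nearly touching groups for Slc39a2 and Abracl (1.01-fold) and wider gaps for Pkp4 (2.85-fold) and Ccng2 (2.82-fold).

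The size of the shift differed between the genotypes for part of the set. Each genotype was also tested on its own against the same WT libraries, which the 2 comparisons share. Of all genes, 17 (0.122%) were called in KO against WT, 0.0788% higher and 0.043% lower, and 473 (3.39%) in G77S against WT, 1.3% higher and 2.09% lower. Of the 20 higher genes, 20 were called in G77S against WT and 6 in KO against WT, and 6 met both: Aqp8, P4ha1, Utf1, Mrpl17, Dhrs7 and Efcab10. Of the 34 lower genes, 26 were called in G77S against WT, 1 (Apoa1) in KO against WT and 0 in both, and 7 were called only in the pooled comparison. The genotypes had unequal numbers of libraries, so these counts do not rank them.

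A direct test of G77S against KO called 585 genes (4.19%; 1.76% higher and 2.43% lower in G77S), among them 3 of the 20 higher and 11 of the 34 lower genes. Aqp8 was higher in KO (log2 difference G77S minus KO -3.58, adjusted p = 0.0248), while Fabp5 (2.46, adjusted p = 0.00391) and Gclm (1.67, adjusted p = 0.0498) were higher in G77S. Utf1 differed by -0.73 (SE 0.44) and P4ha1 by -0.65 (SE 0.74) with no call, which does not show that the genotypes are alike. Apoa1 was less reduced in G77S (2.70, adjusted p = 0.0304), and Id2 more (-1.19, adjusted p = 0.00998).

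The 11 called genes whose libraries overlapped were all lower and all differed between the genotypes. Isca2 itself is one, with a pooled log2 fold change of -2.49 (SE 0.27, adjusted p = 0.0062) made of -4.64 in KO and -0.34 in G77S. Adh1, encoding an alcohol dehydrogenase, is the reverse case. It stood at 13087, 9201 and 8902 CPM in WT and at 14948 and 16123 CPM in KO, above every WT library, but at 333, 461 and 425 CPM in G77S. Its pooled value of -2.05 (SE 0.18, adjusted p = 0.0036) therefore describes G77S only. Slc7a3, encoding an importer of arginine and lysine, had pooled -4.37 (adjusted p = 0.0355) from 19.5 to 149 CPM in WT, 23 and 15.0 CPM in KO, and 0 to 1.26 CPM in G77S. Without WT replicate 1 the Slc7a3 value was -3.59. The Slc7a3 call was lost when any 1 WT or G77S library was left out (adjusted p from 0.0503 to 0.0887). With a KO library left out only 1 remains in that group, so no claim is made that the Slc7a3 call holds without it. The other 8, listed after their values were seen, were Wls, Ltc4s, Entpd1, Gm4926, Gm12173, Lgals1, Glipr1 and Pdzk1ip1, each lower in G77S than in KO. Of the 65 called genes 4 (6.15%) lie on chromosome 12 with Isca2 (Isca2, Id2, Efcab10 and Dhrs7), as do 512 of all tested genes (3.67%).

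**Figure D3:**
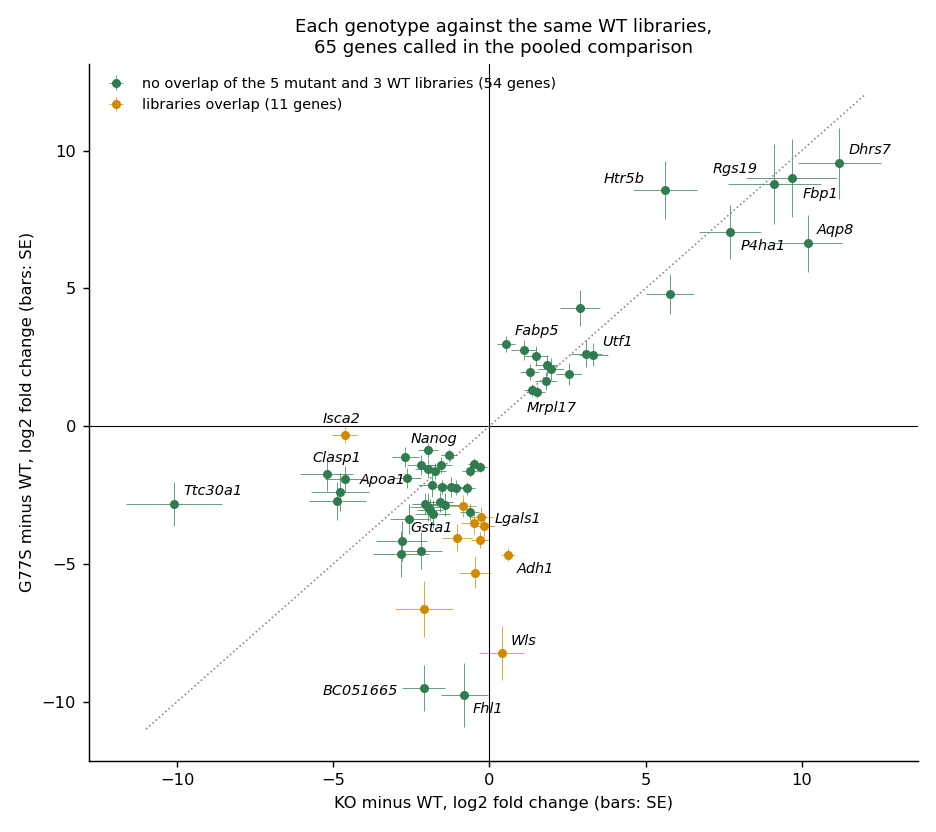
Log2 fold change of KO minus WT (horizontal) and G77S minus WT (vertical) for the 65 called genes, with SE bars; green genes have no overlap between mutant and WT libraries, orange genes overlap, and the dotted line marks equal values. Both axes share the WT libraries. Aqp8, P4ha1 and Dhrs7 lie at the upper right; Isca2 lies near 0 on the G77S axis, and Adh1 and Wls lie near 0 on the KO axis.

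Gene lists of lineages and pathways were then described by counts and medians of the pooled log2 fold change, beside a median of -0.05 over all tested genes. Of 43 lists, 15 held a called gene. The background for a call is the 0.143% higher and 0.323% lower given above, and for no overlap 3.78% higher and 3.5% lower. Of all tested genes, 14.9% had an unadjusted p under 0.05 with edgeR, and DESeq2 called 5.37% and limma 1.13%.

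Several primitive endoderm markers were at or near 0 in WT and present in the mutants, while others, such as Dab2, were abundant in both. Of 19 tested, 1 (Aqp8) was called higher, 0 lower and 18 were not called, 6 were higher without overlap, 15 were positive, and the median was 3.66, with 4.5 in KO and 1.17 in G77S. The summed level of the list overlapped between groups, at 1242 to 1696 CPM in WT, 2119 and 1367 CPM in KO, and 926 to 1397 CPM in G77S. Of the 19, 11 had an unadjusted p under 0.05 with edgeR, and DESeq2 called 6 and limma 2. With genes at 3 or fewer counts on one side set to their bounds or ratios the median was 3.41, and with libraries carrying Y-linked RNA only it was 1.62. It was 0.47 over the 13 members left by a filter at 5 CPM, and 0.37 on log2(TPM + 1). Col4a1, encoding the alpha 1 chain of collagen IV, had 0.279, 0 and 0 CPM in WT, 14.6 and 6.15 CPM in KO, and 5.88, 3.54 and 1.47 CPM in G77S (adjusted p = 0.0641). Col4a2, the partner chain, had 0.558, 0 and 0 CPM in WT and 1.16 to 10.3 CPM in the mutants (adjusted p = 0.159). Pdgfra, encoding the receptor for platelet-derived growth factor, had 1 count in WT and 0.413 to 4.69 CPM in the mutants (ratio 120, 21.3 to 4770, adjusted p = 0.1). Cubn, encoding the endocytic receptor cubilin, had at most 0.199 CPM in WT and 1.22 to 3.37 CPM in the mutants (adjusted p = 0.133). Gata6, the regulator of the lineage, had 17.8 to 23.5 CPM in WT and 26.0 to 28.2 CPM in the mutants (log2 fold change 0.44, SE 0.27, adjusted p = 0.482). Laminin gene Lamb1 split by genotype, with 24.2 and 19.9 CPM in KO, 4.42 to 5.81 CPM in G77S and 4.57 to 5.58 CPM in WT.

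Epiblast markers moved both ways. Of 22 naive markers tested, Utf1 was called higher and Nanog lower with edgeR, and 20 were not called. Of the 22, 12 had an unadjusted p under 0.05, and DESeq2 called 6 and limma 5. Without overlap 6 were higher and 1 lower, and the median was 0.85 (0.40 to 0.86 over the other scalings and filters run). Tdgf1, encoding the Nodal co-receptor Cripto, had 0.223, 0.199 and 13.3 CPM in WT and 44.2 to 158 CPM in the mutants (adjusted p = 0.124). Zfp42, encoding the pluripotency marker REX1, had 80.5 to 153 CPM in WT and 199 to 263 CPM in the mutants (adjusted p = 0.132), and Dppa4 had 79.7 to 124 CPM in WT and 145 to 314 CPM in the mutants (adjusted p = 0.0691). Sox2 had 0 counts in WT and 0.136 to 1.32 CPM in the mutants (adjusted p = 0.203). Pou5f1 went in opposite directions, 2.89 and 3.87 CPM in KO and 26.7 to 52.9 CPM in G77S. Trophectoderm markers had 0 called higher and 1 lower (Id2) of 28 with edgeR (8 called with DESeq2 and 4 with limma). Of the 28, 13 had an unadjusted p under 0.05 with edgeR. Without overlap 0 were higher and 4 lower, 24 were negative and the median was -0.80. This median was negative under each scaling and filter run, and it was -0.70 in KO and -0.83 in G77S. Their summed level was 39072, 40954 and 39074 CPM in WT and 40899 and 40257 CPM in KO, but 15475, 11286 and 14088 CPM in G77S, so KO overlapped WT in sum and G77S lay below. Eomes, a trophoblast stem cell factor gene, had 22.5 to 41.9 CPM in WT and 9.54 to 21.3 CPM in the mutants (adjusted p = 0.106). Cldn3, encoding a tight junction protein, had 45.0 to 60.6 CPM in WT, 36.4 and 34.1 CPM in KO, and 6.87 to 14.5 CPM in G77S (adjusted p = 0.0536).

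The collagen and basement membrane list held 1 called higher (P4ha1) and 1 lower (Nid1) of 28 with edgeR. Of the 28, 12 had an unadjusted p under 0.05, and DESeq2 called 9 and limma 2. Without overlap 3 were higher and 3 lower, and the median was 0.38. Members on the collagen side (Col4a1, Col4a2, P4ha1) were the ones higher in every mutant library, and the lower ones were Nid1, the dystroglycan gene Dag1 (adjusted p = 0.122) and the laminin receptor gene Itga6 (adjusted p = 0.0942). P4ha2 and P4hb, encoding the other alpha subunit and the beta subunit of the hydroxylase, had log2 fold changes of 0.39 and -0.37 with no call (adjusted p = 0.636 and 0.463). Of 47 dioxygenases using iron and 2-oxoglutarate, P4ha1 alone was called with edgeR (5 with DESeq2 and 1 with limma), 4 were higher and 5 lower without overlap, and the median was -0.12. The TET genes belong to this family. Tet1 had 1.09 to 7.88 CPM in WT and 4.77 to 18.2 CPM in the mutants (log2 fold change 0.69, SE 0.58), Tet2 had -0.69 (SE 0.32) and Tet3 -1.98 (SE 0.95), all without a call (adjusted p = 0.639, 0.339 and 0.364). Among 28 genes of DNA methylation and demethylation 0 were called with edgeR, 2 had an unadjusted p under 0.05, and DESeq2 and limma called 1 each. Base excision repair gene Apex1 was the 1 without overlap, at 114 to 147 CPM in WT and 183 to 264 CPM in the mutants (adjusted p = 0.0718). RNA levels do not measure TET activity or methylation.

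Iron-sulfur genes other than Isca2 had no call with edgeR. In mitochondrial assembly Isca2 alone was called of 21 (median 0.15), and its partner gene Isca1 had 165, 267 and 231 CPM in WT, 212 and 235 CPM in KO, and 143 to 211 CPM in G77S (log2 fold change -0.16, SE 0.21, adjusted p = 0.797). The scaffold gene Iscu had 0.11 (SE 0.19) and the desulfurase gene Nfs1 0.78 (SE 0.34), both without a call (adjusted p = 0.844 and 0.316). Cytosolic assembly (12 tested), nuclear and cytosolic iron-sulfur enzymes (23), lipoylation and mitochondrial iron-sulfur enzymes (18), and iron uptake and storage (19) held 0 calls each with edgeR, and 1, 3, 5 and 2 members with an unadjusted p under 0.05. DESeq2 called 0, 2, 2 and 2 of them in the same order, and limma 0, 0, 0 and 1. The ferroportin gene Slc40a1 was the 1 iron gene lower in every mutant library, at -3.56 on the log2 scale (adjusted p = 0.0518). Respiratory complexes I and II held 0 called of 40 with a median of -0.11, with 0.26 in KO and -0.49 in G77S, which have opposite signs, and 3 members had an unadjusted p under 0.05 (0 called by DESeq2 and by limma).

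Cytosolic ribosomal protein genes had small positive values with no call. Of 82 cytosolic ribosomal protein genes 0 were called with edgeR, 27 had an unadjusted p under 0.05 and DESeq2 called 1 and limma 0. Of the 82, 77 were positive and 22 were higher in every mutant library. Their median was 0.35, and it was 0.12 once trends over transcript length and GC content were removed, a step that moved the median of all genes to -0.17. Their summed level was 46029.5, 58135 and 51922 CPM in WT, 59140.1 and 63684 CPM in KO, and 72026, 62056 and 61645 CPM in G77S. Among 78 mitochondrial ribosomal protein genes only Mrpl17 was called, 5 were higher and 1 lower without overlap, and the median was 0.10 (-0.13 after that removal). The next member without overlap by size was Mrpl19, at a log2 fold change of 0.59.

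In glutathione and peroxide defence 1 of 38 was called higher (Gclm) and 1 lower (Gsta1) with edgeR. Of the 38, 16 had an unadjusted p under 0.05, and DESeq2 called 9 and limma 4. Without overlap 4 were higher and 1 lower, and the median was 0.21 (-0.03 after removal of length and GC trends). Catalase gene Cat had 10.6 to 17.8 CPM in WT, 21.1 and 40.4 CPM in KO, and 49.7 to 90.2 CPM in G77S (adjusted p = 0.0536). The glutathione peroxidase gene Gpx2 had 1.19 to 1.99 CPM in WT, 3.01 and 2.33 CPM in KO, and 16.6 to 72.7 CPM in G77S (adjusted p = 0.0551). Of 24 genes of the integrated stress response Cth was called higher and Slc7a3 lower with edgeR, and 17 were negative. Of these 24, 10 had an unadjusted p under 0.05, and DESeq2 called 6 and limma 2. The median was -0.77 pooled, -0.13 in KO and -1.07 in G77S. Its regulator gene Atf4 had 35.5, 95.4 and 119.8 CPM in WT and 35.8 to 63.1 CPM in the mutants (adjusted p = 0.326). Of 21 p53 targets Mdm2 alone was called with edgeR (4 with DESeq2 and 2 with limma), and the target genes split: Pmaip1, encoding the apoptosis factor NOXA, had 3.74 to 5.26 CPM in WT and 11.9 to 33.8 CPM in the mutants (adjusted p = 0.0504), while Cdkn1a, encoding p21, was at -1.09 on the log2 scale (adjusted p = 0.25). Of 16 interferon and antigen presentation genes 0 were called with edgeR, 8 had an unadjusted p under 0.05, and DESeq2 called 6 and limma 2. Ube2l6, encoding the conjugating enzyme of ISG15, had 0.0993 to 1.90 CPM in WT and 6.25 to 53.8 CPM in the mutants (adjusted p = 0.0504).

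Germline genes silenced by DNA methylation held 0 called of 25 with edgeR, with 3 at an unadjusted p under 0.05, 2 called with DESeq2 and 1 with limma, 13 positive, 12 negative and a median of 0.08. Apolipoproteins and lipid carriers held 1 called higher (Fabp5) and 1 lower (Apoa1) of 15 with edgeR, 9 positive and a median of 0.41, with 0.52 in KO and -0.09 in G77S. Of the 15, 7 had an unadjusted p under 0.05, and DESeq2 called 3 and limma 4.

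**Figure D4:**
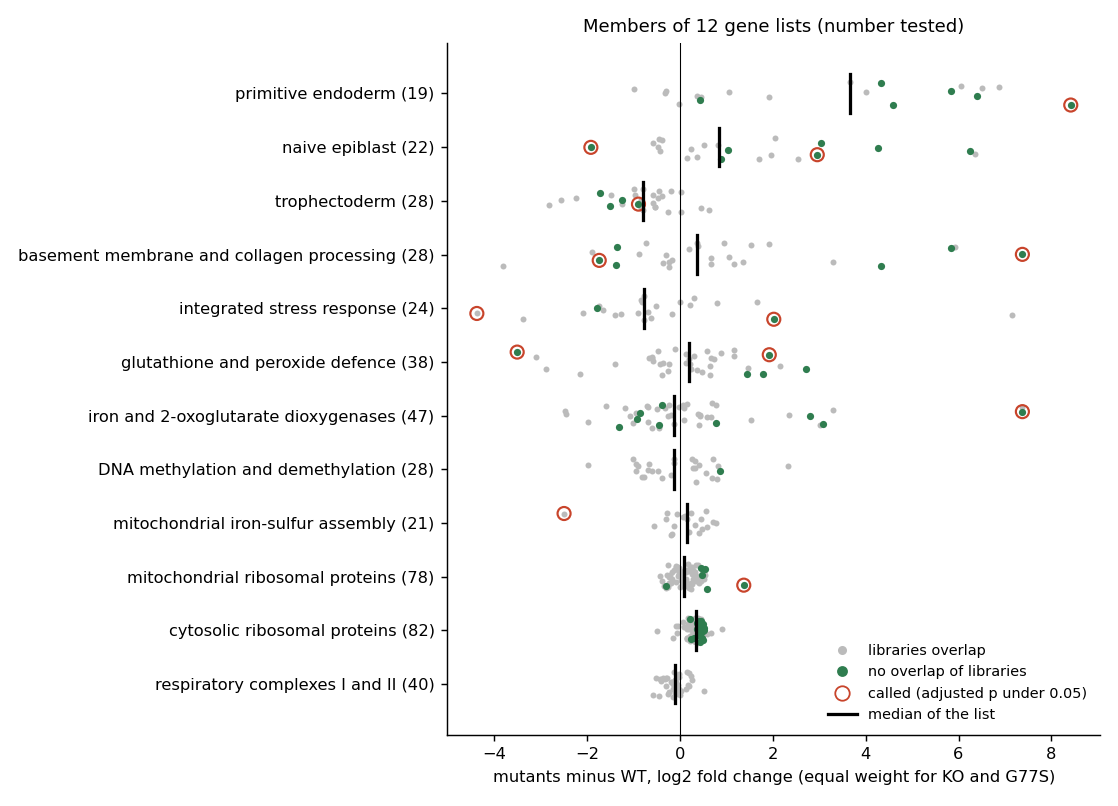
Pooled log2 fold change (mutants minus WT) of the tested members of 12 lists, 1 dot per gene; green dots have no overlap between mutant and WT libraries, red rings mark called genes and black bars are list medians. The primitive endoderm median is 3.66 and the trophectoderm median -0.80; ribosomal protein genes form a narrow group around 0.35.

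Most markers of cells outside the embryo were at or near 0, and the highest were Cd68 and Lif. Each of these was lower in every mutant library than in every WT library, without a call. Lif had 12.0 to 15.7 CPM in WT and 2.17 to 6.16 CPM in the mutants (adjusted p = 0.132). Of 14 cumulus and granulosa markers 10 had 0 counts in all 8 libraries, and their summed level was 0.159 to 6.45 CPM. The 11 fibroblast markers summed to at most 3.13 CPM, with Col1a2, Col3a1 and Dcn at 0 counts. Uterine epithelium markers (10) summed to 12.5 to 22.7 CPM in WT and 3.92 to 8.23 CPM in the mutants, most of it from Lif, and Ltf had 0 counts. The 13 blood and immune markers summed to 25.4 to 75.2 CPM in WT, 11.6 to 14.0 CPM in KO and 12.7 to 21.3 CPM in G77S, and nearly all of this was Cd68 (23.2 to 74.4 CPM in WT, 8.21 to 16.9 CPM in the mutants, adjusted p = 0.0504). The leukocyte marker Ptprc had 5 counts in all libraries together. The part of these cells in the results was not tested.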

How the data were processed

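RNA of E4.5 blastocysts was sequenced after single-cell-kit amplification and transposase library preparation, per the labels. Expected counts per gene, with TPM and FPKM beside them, were deposited by the authors as RSEM tables, per the file headers. Tools listed in the submitters' processing notes are RSEM 1.3.1, STAR 2.6.1c, DESeq2 1.42.1 and Trim Galore 0.4.5, with build GRCm38. The annotation release is not given in the sources used here. Expected counts were rounded and fitted with edgeR 4.0.16 (R 4.3.3; TMM, filterByExpr, quasi-likelihood, 1 mean per genotype, threshold 0.05). The pooled contrast was the mean of KO and G77S minus WT. DESeq2 1.42.0, limma 3.58.1 on log2(TPM + 1), other filters, scalings and left-out libraries were alternatives; FPKM were not used. The script was tested on simulated data. Depth was 10323965 to 23842619 counts, at which 3 counts correspond to 0.139 to 0.298 CPM. Of 55471 identifiers, 55144 had a symbol.

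Members, gene lists and tests were chosen with earlier results of these data known. Genes were named if they were Isca2, Aqp8, P4ha1, Utf1 or Mrpl17, among the 10 largest or 10 most abundant called genes without overlap in each direction (at least 10 CPM), or among up to 4 called members of each list; other genes named were chosen after their values were seen. Same-numbered libraries were not paired: their deviations correlated at -0.021 to 0.071.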

Additional observations from a re-analysis of the deposited data

Results flagged for a closer look

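In 3 genes 1 of the 5 mutant libraries stood apart from the others on log2(CPM + 1), by the ratio of its gap to the whole range: Pla2g10 (0.831), mt-Atp8 (0.815) and Eif2s3y (0.897). Such gaps also arise by chance, at a rate that was not tested here, and Eif2s3y is Y-linked.

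For 25 of the 65 called genes KO and G77S differed from each other with edgeR at an adjusted p under 0.05. Values are log2 G77S minus KO. G77S was higher for Isca2 (4.30), Clasp1 (3.46), Apoa1 (2.70), Fabp5 (2.46) and Gclm (1.67). G77S was lower for Wls (-8.61), BC051665 (-7.39), Adh1 (-5.26), Ltc4s (-4.86), Slc7a3 (-4.54), Gm4926 (-3.83), Aqp8 (-3.58), Lgals1 (-3.45), Pdzk1ip1 (-3.03), Entpd1 (-3.02), Gm12173 (-3.02), Abracl (-2.49), Glipr1 (-2.06), Tmem14c (-1.54), Id2 (-1.19), Gng2 (-1.19), Creg1 (-0.99) and Dstn (-0.88). Ttc30a1 had 0 counts in KO and Fhl1 had 0 counts in G77S. Their fitted values, 7.25 and -8.94, depend on the prior count and give a direction but no size. Fragments were shorter in G77S libraries, so genotype and preparation cannot be told apart.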

How the results depend on the processing

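Counts of called genes moved with the processing. The 54 called genes without overlap kept their direction in every setting run (53 were measured under the stricter filter). Their choice by lack of overlap all but fixes the direction, so this is no test of stability. Higher and lower calls, then calls without overlap, were 357, 392, 237 and 214 with DESeq2, 330, 467, 155 and 161 with no filter, 57, 109, 49 and 71 with the filter at 5 CPM, and 34, 133, 33 and 80 with length and GC trends removed, against 20, 45, 20 and 34. With limma they were 87 higher and 70 lower, 65 of the higher without overlap. Equal weight per library gave 0 in all 4 counts, with 1541 genes at an unadjusted p under 0.05. Asking for a call in both genotypes' own tests gave 6 higher (6 without overlap) and 0 lower (0). With libraries carrying Y-linked RNA only, 1227 genes were higher and 1131 lower without overlap, since fewer libraries have to be separated, and 32 of the 54 were still called. Leaving out 1 library gave 0 to 52 higher and 0 to 79 lower calls, 0 to 52 and 0 to 64 of them without overlap, and 650 to 1134 higher and 539 to 998 lower genes without overlap. Adjusted p over these 8 fits was 0.0115 to 0.098 for Aqp8, 0.0167 to 0.098 for P4ha1, 0.00855 to 0.106 for Utf1, 0.0237 to 0.109 for Mrpl17 and 0.0347 to 0.15 for Nanog. With the replicate number as a block, 18 higher and 44 lower genes were called, 15 and 27 without overlap, and 34 of the 54 were still called; the numbers do not pair the libraries. Apart from the constructions named, the cause of these shifts was not tested. For genes at 0 counts in a group only a bound or a direction is given.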
